A study of Nothobranchius furzeri with 16 samples.

Results

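The genes described here are the immediate early, glucocorticoid and clock genes of the brain of the African turquoise killifish (Nothobranchius furzeri), a short-lived annual fish. They were chosen by name from the ribosome footprint table: symbols that start with FOS, JUN, EGR, NR4A, NR1D, KLF or DUSP, CRY and PER followed by a digit, and CLOCK, NPAS2, FKBP5, TSC22D3 and NR3C1 with any copy letter or number. The names ARNTL and ARC belonged to the rule as well and matched no symbol of that table. The rule gave 99 of 28494 symbols and used no measured value. In the RNA table, genes carry only killifish identifiers. In the copies of the study's supplementary tables used here, some of them shortened, 43 of its 26739 identifiers carry 34 names of the rule (ARNTL included), given by the closest human protein. Further copies of these genes may stand in the RNA table without a name, and no identifier was named ARC, CLOCK, NPAS2 or NR1D1.

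Immediate early genes (FOS, JUN, EGR and NR4A families, and ARC) encode transcription factors and a synaptic protein that neurons switch on within minutes of activity, before any new protein is needed. Many, but not all, of the dual-specificity phosphatases (DUSP) switch off the MAP kinases that relay such signals. Glucocorticoid hormone acts through the receptor NR3C1, which switches on FKBP5, TSC22D3 and KLF9 among others. In the circadian clock of vertebrates, ARNTL (BMAL1) with CLOCK or NPAS2 activates the PER, CRY and NR1D genes. PER and CRY proteins then repress that activation, and the NR1D receptors (REV-ERB) repress ARNTL.

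Whole brains of male fish of the wild-derived strain MZM-04/10p were labelled 26 weeks (old) or 6 weeks (young). RNA sequencing and ribosome footprinting (ART-seq, which sequences the RNA fragments that ribosomes protect, here without depletion of ribosomal RNA) each covered both ages with 4 libraries, 16 in all. Old RNA samples have 22 in their titles but 26 weeks as their age label, and groups follow that label. No drug or genotype distinguished the ages. Whether each library is a separate fish is not labelled. The p-values then rest on library-to-library spread, some of which may be technical. Clock genes change over the day. The methods say that fish were killed at a fixed morning hour, fasted, and the labels repeat this for the footprint libraries only. So 1 time of day was sampled, and a change of level cannot be told apart from a change of phase. In bulk tissue, fewer cells of a type and less RNA per cell cannot be told apart either.

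RNA libraries held 9461792 to 12271086 counts at 26 weeks and 11181136 to 13771769 at 6 weeks. The replicate 1 libraries of both ages stood apart from the other 6. On the first principal component (60% of the variance), they lay at -92.8 (26 weeks) and -88.6 (6 weeks), and the others between 3.63 and 47.6. Both replicate 1 libraries lay below the other 6 in 15 of the 43 members (34.9%, against 27.6% of all genes tested) and above them in 5 (11.6%, against 26.5%). The RNA tests of the members were therefore run with all 8 libraries and with replicates 2 to 4. Among marker genes, the 4 named astroglial genes were lower in both replicate 1 libraries than in the other 6, and summed to 2514 to 7849 counts per 1000000 (CPM) at 26 weeks and 3152 to 9941 CPM at 6 weeks. The 9 named neuronal genes summed to 974 to 1666 CPM at 26 weeks and 1136 to 1692 CPM at 6 weeks. With replicates 2 to 4, 5 of the 9 fell and none of the 9 rose, where 15.9% of all genes tested fell and 16.0% rose (edgeR, as below). The 5 were NEFL Nfu_g_1_006470, NEFM, SNAP25, SYN1 and ELAVL4, of which SYN1 and ELAVL4 averaged 3.80 CPM or less there. ELAVL3, the most abundant of the 9, did not pass with replicates 2 to 4 (log2 fold change 0.17, edgeR, adjusted p = 0.254). In that fit 1 of the 4 astroglial genes fell (FABP7, adjusted p = 0.00139), as did 1 of the 5 oligodendrocyte genes (CNP, adjusted p = 4.68e-04). Marker names came from the study's tables as well. NEFM, SYN1 and FABP7 are named only in tables that the study ranked by change of RNA with age in other fish. NEFL Nfu_g_1_006470, SNAP25 and CNP are named in those tables and in others. These marker counts are therefore not independent evidence of a change with age.

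Markers of neighbouring tissue were uneven. GH1, the growth hormone of the pituitary, had 8.04, 0.773, 0.372 and 1.56 CPM at 26 weeks, against 0, 27.1, 49.8 and 64.2 CPM at 6 weeks. Of the 8 red blood cell identifiers, 6 were tested and 3, all globins, fell with all 8 libraries, where 29 of 16759 genes tested fell (edgeR). These 3 were low, and none averaged above 4.06 CPM at either age. The summed list had 98.1 to 240.2 CPM at 26 weeks and 171 to 544 CPM at 6 weeks. Most of it came from the globin Nfu_g_1_007641, which did not pass with 8 libraries (edgeR, adjusted p = 0.557). The part of these markers in the results below was not tested. Muscle markers summed to 8.43 to 37.5 CPM at 26 weeks and 10.7 to 45.2 CPM at 6 weeks, and oligodendrocyte markers to 3164 to 4729 CPM at 26 weeks and 3532 to 5166 CPM at 6 weeks.

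The question of the RNA comparison was which of these genes differ between old and young brain. In all 8 libraries, 3 of the 43 members passed the test, and all 3 are clock genes. A pair of NR1D2 genes rose to 10.1 and 8.49 times their mean at 6 weeks, and PER3 fell to 0.299 times its level at 6 weeks. The test was edgeR's quasi-likelihood test with Benjamini-Hochberg adjustment over all 16759 genes tested, at a threshold of 0.05, and it called 57 genes, 0.340% of them. With replicates 2 to 4, 18 of 42 members rose and 4 fell, where 16.0% of all genes tested rose and 15.9% fell. These member counts are not independent evidence of a change with age. Of the 43 identifiers, 36 carry a name only through tables that the study ranked by change of RNA with age in other fish. Restricted to the other 7, none passed in 8 libraries and 3 rose with replicates 2 to 4. The ages did not overlap in 9 of 43 members (20.9%), against 9.89% of all genes tested. All 9 are among those 36 identifiers, and 0 among the other 7, so this share is not independent evidence either. The median log2 fold change over the members was 0.34 with 8 libraries and 0.16 with replicates 2 to 4, and that over all genes tested was 0.04 and 0.00. In the same fits it was 0.28 and 0.23 over the 36, and 0.42 and 0.06 over the other 7.

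**Figure D1:**
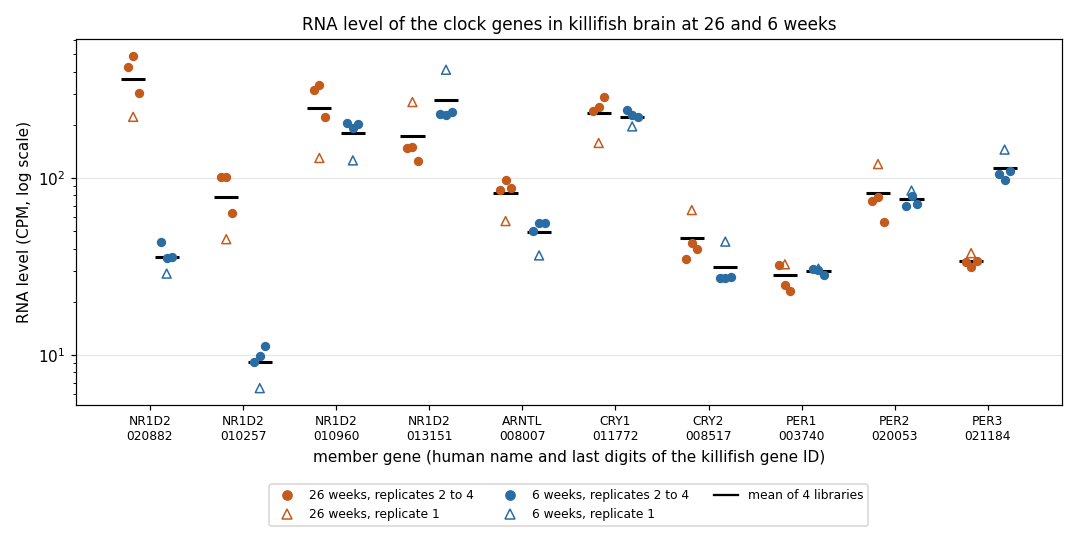
RNA level (CPM, log axis) of the 10 clock gene identifiers in each library, with 26 weeks left of 6 weeks for each gene, triangles for replicate 1, dots for replicates 2 to 4 and a bar for the mean of 4. The first NR1D2 gene lies between 222 and 493 CPM at 26 weeks and between 28.9 and 43.3 CPM at 6 weeks, and PER3 shows the opposite order with 31.3 to 37.7 CPM at 26 weeks and 97.0 to 145 CPM at 6 weeks.

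The clock repressor NR1D2 (REV-ERB beta) is the name of 4 killifish genes, all matched to the same human protein. No RNA identifier was named NR1D1, although the footprint table has that symbol, and whether any of the 4 is a copy of NR1D1 was not tested. Nfu_g_1_020882 had 222, 426, 493 and 303 CPM in 26-week brains, against 28.9, 43.3, 35.4 and 35.9 CPM in 6-week brains. Every old library was far above every young one, and the means were 361 ± 122 CPM at 26 weeks and 35.9 ± 5.89 CPM at 6 weeks (SD, n = 4 libraries each). The log2 fold change was 3.33 ± 0.30 (SE, adjusted p = 0.0180 with edgeR) and 3.31 ± 0.16 with replicates 2 to 4 (edgeR, adjusted p = 1.12e-05). Nfu_g_1_010257 had 45.2, 102, 101 and 63.5 CPM at 26 weeks and 6.51, 9.11, 9.86 and 11.2 CPM at 6 weeks, again without overlap. Its log2 fold change was 3.08 ± 0.32 (adjusted p = 0.0180 with edgeR), and 3.04 ± 0.19 with replicates 2 to 4 (edgeR, adjusted p = 5.63e-05).

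The other NR1D2 genes did not share this change. Nfu_g_1_013151 had 269, 148, 149.7 and 125 CPM at 26 weeks, against 409.5, 231, 226 and 236 CPM at 6 weeks. At each age its replicate 1 library was the highest. In replicates 2 to 4 it fell (log2 fold change -0.81 ± 0.09, edgeR, adjusted p = 6.15e-04), and with 8 libraries it did not pass (-0.67 ± 0.31, adjusted p = 0.355). Nfu_g_1_010960 had 130.0, 313, 336 and 222 CPM at 26 weeks, against 126, 205, 192 and 201 CPM at 6 weeks, with replicate 1 lowest at both ages. It rose in replicates 2 to 4 (log2 fold change 0.44 ± 0.13, edgeR, adjusted p = 0.0287) and not with 8 libraries (adjusted p = 0.543).

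Levels of different genes can be set side by side only per length. Per kilobase of gene length, the NR1D2 genes Nfu_g_1_020882, Nfu_g_1_010960, Nfu_g_1_013151 and Nfu_g_1_010257 averaged 107, 77.4, 24 and 22.3 CPM at 26 weeks. The ranges over libraries overlapped within the upper pair and within the lower pair. Compared within each 26-week library, Nfu_g_1_020882 lay above Nfu_g_1_010960 every time. At 6 weeks they averaged 10.6, 56.0, 38.3 and 2.62 CPM per kilobase in that order of genes. Without the replicate 1 libraries, the averages were 121, 89.8, 19.5 and 25.4 CPM per kilobase at 26 weeks and 11.3, 61.7, 32.1 and 2.88 at 6 weeks. On average Nfu_g_1_020882 was the highest of the 4 at 26 weeks and below 2 of the others at 6 weeks in both sets of libraries. Nfu_g_1_010257 was the lowest at 6 weeks, and its order against Nfu_g_1_013151 at 26 weeks turns round without replicate 1.

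PER3, a member of the period family of clock repressors, fell with 8 libraries and with replicates 2 to 4. It had 37.7, 33.5, 31.3 and 34.1 CPM at 26 weeks, against 145, 105, 97.0 and 109.8 CPM at 6 weeks, so that the highest old library was far below the lowest young one. Its means were 34.1 ± 2.65 CPM at 26 weeks and 114 ± 21.2 CPM at 6 weeks (SD, n = 4 libraries each). The log2 fold change was -1.74 ± 0.19 (edgeR, adjusted p = 0.0180) and -1.75 ± 0.10 with replicates 2 to 4 (edgeR, adjusted p = 3.31e-05). Leaving out replicate 2 or 4 at 26 weeks or replicate 2, 3 or 4 at 6 weeks ended this call and both NR1D2 calls (adjusted p of 0.0873 to 0.123 with edgeR). In each of those fits 0 of all genes tested were called, so the loss was not particular to these genes. Leaving out replicate 3 at 26 weeks ended the call of PER3 alone among them (edgeR, adjusted p = 0.0545). Over these and all other alternatives the log2 fold changes stayed between 3.15 and 3.43 for Nfu_g_1_020882, between 2.93 and 3.20 for Nfu_g_1_010257 and between -1.87 and -1.60 for PER3.

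The other period genes did not pass. PER1 had 32.6, 32.5, 25.0 and 23.1 CPM at 26 weeks, against 30.8, 30.6, 30.4 and 28.2 CPM at 6 weeks. PER2 had 120.1, 74.5, 78.2 and 56.3 CPM at 26 weeks and 85.1, 69.7, 79.6 and 71.7 CPM at 6 weeks, with replicate 1 highest at both ages. For both genes the ages overlapped, with log2 fold changes of -0.08 ± 0.19 for PER1 and 0.10 ± 0.24 for PER2 (edgeR, adjusted p = 0.890 and 0.895). With replicates 2 to 4 the values were -0.24 for PER1 and -0.18 for PER2 (edgeR, adjusted p = 0.253 and 0.283), and that of PER2 was -0.01 with upper quartile scaling. A direction is not given for PER2 here.

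ARNTL (BMAL1), the activator of the clock, had 57.2, 85.6, 97.8 and 87.8 CPM at 26 weeks, against 36.6, 50.5, 56.1 and 55.9 CPM at 6 weeks. The ages did not overlap, by a margin of about 1 CPM set by replicate 1 of the old fish. It rose in replicates 2 to 4 (log2 fold change 0.64 ± 0.09, edgeR, adjusted p = 0.00186) and not with 8 libraries (0.72 ± 0.23, adjusted p = 0.212). Of the cryptochromes, which repress ARNTL and CLOCK together with PER, CRY2 had 66.0, 35.1, 42.8 and 39.6 CPM at 26 weeks, against 43.8, 27.2, 27.3 and 27.6 CPM at 6 weeks. Within replicates 2 to 4 the ages were apart, and the gene rose there (log2 fold change 0.42 ± 0.10, edgeR, adjusted p = 0.0157, against 0.376 with 8 libraries). CRY1 had 158, 238, 252 and 286 CPM at 26 weeks, against 196, 242, 228 and 220.1 CPM at 6 weeks, and did not pass (log2 fold change 0.07 ± 0.22, edgeR, adjusted p = 0.925, and 0.07 ± 0.09 with replicates 2 to 4, adjusted p = 0.571).

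A ratio of the counts of 2 genes within a library does not depend on how libraries are scaled. The 4 such ratios computed were chosen after the values were seen. NR1D2 Nfu_g_1_020882 over NR1D2 Nfu_g_1_013151 was 0.824, 2.88, 3.29 and 2.43 at 26 weeks, against 0.0705, 0.187, 0.156 and 0.152 at 6 weeks. ARNTL over PER3 was 1.52, 2.55, 3.13 and 2.58 at 26 weeks, against 0.253, 0.483, 0.579 and 0.509 at 6 weeks. In both ratios every old library lay above every young one, although replicate 1 was the lowest of its age. Because of that choice the ratios are a description and carry no test.

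**Figure D2:**
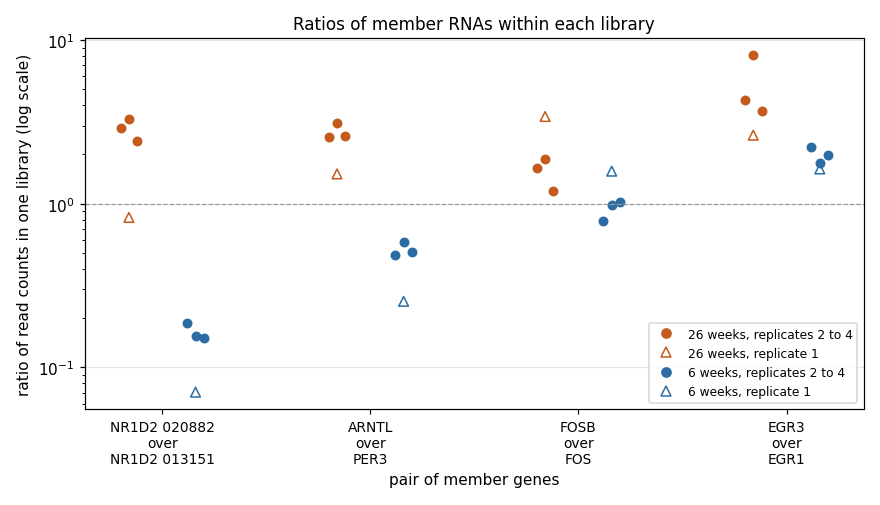
Ratio of the read counts of 2 member genes within each library (log axis), 26 weeks left of 6 weeks, triangles for replicate 1. NR1D2 Nfu_g_1_020882 over NR1D2 Nfu_g_1_013151 runs between 0.824 and 3.29 at 26 weeks and between 0.0705 and 0.187 at 6 weeks, and the ages of FOSB over FOS overlap (1.20 to 3.41 at 26 weeks, 0.782 to 1.58 at 6 weeks).

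The FOS and JUN families form the AP-1 factor. None of their 7 identifiers passed with 8 libraries. With replicates 2 to 4, 5 of the 7 rose and none fell, where 16.0% of all genes tested rose and 15.9% fell. All of the 7 but JUN carry a name only through the tables ranked by change of RNA with age. FOSB had 95.7, 105, 141 and 101 CPM at 26 weeks, against 57.0, 68.0, 73.9 and 61.5 CPM at 6 weeks, without overlap (log2 fold change 0.76 ± 0.19, edgeR, adjusted p = 0.142, and 0.66 ± 0.12 with replicates 2 to 4, adjusted p = 0.00417). FOSL2 had 175, 183, 255 and 239 CPM at 26 weeks and 147, 117, 125 and 97.5 CPM at 6 weeks, also without overlap (0.81 ± 0.22, adjusted p = 0.159, and 0.90 ± 0.12 with replicates 2 to 4, adjusted p = 0.00156 with edgeR). FOS itself, the founding immediate early gene, did not pass in either fit and its ages overlapped. It had 28.1, 64.0, 75.2 and 84.2 CPM at 26 weeks, against 36.1, 87.0, 74.8 and 59.4 CPM at 6 weeks, with replicate 1 lowest at both ages (log2 fold change -0.03 ± 0.37, edgeR, adjusted p = 0.983, and -0.08 ± 0.14 with replicates 2 to 4, adjusted p = 0.683). FOSB over FOS was 3.41, 1.65, 1.87 and 1.20 at 26 weeks, against 1.58, 0.782, 0.987 and 1.03 at 6 weeks, which overlap. FOSL1 was low, with 7.37, 4.16, 9.31 and 4.26 CPM at 26 weeks and 5.24, 2.49, 2.08 and 1.86 CPM at 6 weeks, and passed with replicates 2 to 4 (1.33 ± 0.33, edgeR, adjusted p = 0.0161, against 0.273 with 8 libraries).

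JUNB, an AP-1 partner that restrains JUN in many cells, had 108, 126, 164 and 185 CPM at 26 weeks, against 61.4, 73.3, 86.9 and 60.3 CPM at 6 weeks. The ages did not overlap, and the log2 fold change was 1.05 ± 0.23 (edgeR, adjusted p = 0.113), or 1.01 ± 0.16 with replicates 2 to 4 (adjusted p = 0.00263). JUN had 37.0, 71.4, 81.7 and 76.5 CPM at 26 weeks and 32.3, 50.8, 37.9 and 35.3 CPM at 6 weeks, where replicate 1 of the old fish lay within the young range. It passed with replicates 2 to 4 (log2 fold change 0.80 ± 0.12, edgeR, adjusted p = 0.00194, against 0.248 with 8 libraries). The third JUN gene, JUND, did not pass in either fit (log2 fold change -0.35 ± 0.49 with 8 libraries, edgeR, adjusted p = 0.806, and -0.54 ± 0.23 with replicates 2 to 4, adjusted p = 0.0998).

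**Figure D3:**
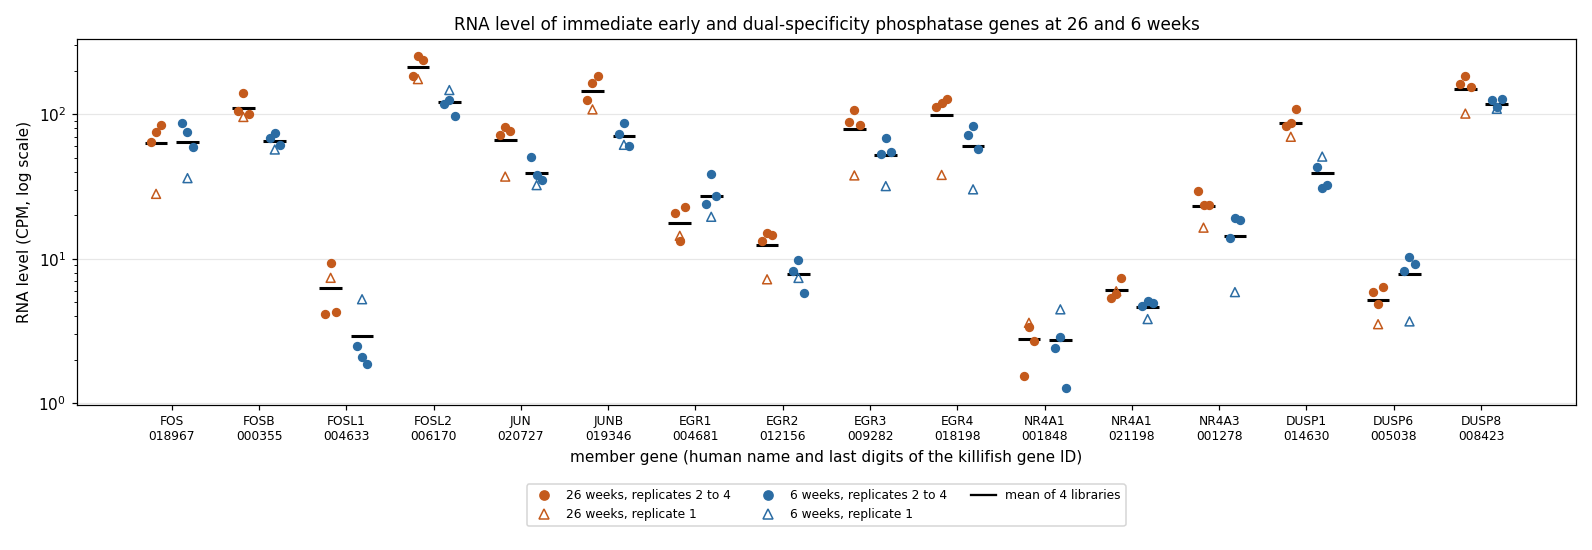
RNA level (CPM, log axis) of 16 immediate early and phosphatase identifiers in each library, with 26 weeks left of 6 weeks for each gene, triangles for replicate 1, dots for replicates 2 to 4 and a bar for the mean of 4. FOSB, FOSL2, JUNB and DUSP1 have every old library above every young one, and the replicate 1 libraries are the lowest of their age for FOS, EGR3 and EGR4 (38.0 CPM at 26 weeks and 30.2 CPM at 6 weeks).

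The EGR genes are zinc finger factors induced by neuronal activity, and none of their 5 identifiers passed with 8 libraries. With replicates 2 to 4, 3 of the 5 rose and 1 fell, where 16.0% of all genes tested rose and 15.9% fell. EGR1, EGR3 and EGR4 Nfu_g_1_018198 carry a name only through the tables ranked by change of RNA with age. The second EGR4 identifier, Nfu_g_1_012693, passed in neither fit (log2 fold change -0.22, edgeR, adjusted p = 0.681, and -0.17 with replicates 2 to 4, adjusted p = 0.365). EGR1 had 14.4, 20.7, 13.2 and 22.9 CPM at 26 weeks, against 19.5, 23.8, 38.5 and 27.3 CPM at 6 weeks, and fell in replicates 2 to 4 (log2 fold change -0.74 ± 0.25, edgeR, adjusted p = 0.0476, against 0.344 with 8 libraries). EGR3 had 37.7, 88.5, 107 and 84.2 CPM at 26 weeks and 31.8, 52.8, 68.3 and 54.4 CPM at 6 weeks. EGR4 Nfu_g_1_018198 had 38.0, 113, 119.6 and 127 CPM at 26 weeks, against 30.2, 71.8, 82.4 and 57.0 CPM at 6 weeks. In both, replicate 1 was the lowest of its age, the other old libraries lay above all young ones, and both rose in replicates 2 to 4 (EGR3 0.57 ± 0.13, EGR4 0.67 ± 0.13, edgeR, adjusted p = 0.00997 and 0.00557) and did not pass with 8 libraries (0.61 ± 0.34 and 0.72 ± 0.42, adjusted p = 0.444 and 0.462). EGR2, known for its part in myelinating cells and in neurons, had 7.20, 13.3, 15.1 and 14.5 CPM at 26 weeks and 7.36, 8.25, 9.86 and 5.81 CPM at 6 weeks (0.75 ± 0.21 in replicates 2 to 4, edgeR, adjusted p = 0.0234, and 0.68 ± 0.29 with 8 libraries, adjusted p = 0.314). EGR3 over EGR1 was 2.62, 4.28, 8.13 and 3.67 at 26 weeks, against 1.63, 2.22, 1.77 and 1.99 at 6 weeks, higher in every old library, again without a test.

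Of the orphan receptors NR4A, NR4A3 had 16.4, 29.2, 23.7 and 23.6 CPM at 26 weeks, against 5.87, 13.8, 19.0 and 18.4 CPM at 6 weeks. Its ages overlapped, and it passed neither with 8 libraries (log2 fold change 0.70 ± 0.36, edgeR, adjusted p = 0.398) nor with replicates 2 to 4 (0.48 ± 0.18, adjusted p = 0.0665). With a term for replicate 1 it passed (0.78, edgeR, adjusted p = 0.0111), and over the alternatives its adjusted p ran up to 0.640. NR4A1 Nfu_g_1_021198 had 5.95, 5.32, 5.71 and 7.30 CPM at 26 weeks, against 3.82, 4.67, 5.13 and 4.92 CPM at 6 weeks. Its ages were apart by less than 1 CPM and it did not pass (0.39 ± 0.22, edgeR, adjusted p = 0.458, and 0.23 ± 0.22 with replicates 2 to 4, adjusted p = 0.451). The second NR4A1 gene, Nfu_g_1_001848, was near the limit of detection with 3.60, 1.55, 3.35 and 2.69 CPM at 26 weeks and 4.46, 2.41, 2.88 and 1.27 CPM at 6 weeks (0.02 ± 0.42, edgeR, adjusted p = 0.992, and 0.10 ± 0.39 with replicates 2 to 4, adjusted p = 0.862).

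DUSP1, which inactivates the stress-activated MAP kinases and is induced by glucocorticoid as well as by activity, had 69.8, 82.9, 87.6 and 109 CPM at 26 weeks, against 50.9, 43.2, 31.0 and 32.3 CPM at 6 weeks. The ages did not overlap. Its log2 fold change was 1.15 ± 0.23 (edgeR, adjusted p = 0.0861) and 1.30 ± 0.14 with replicates 2 to 4 (adjusted p = 5.86e-04). DUSP6, which acts on the kinases of the ERK branch, went the other way with 3.52, 5.90, 4.84 and 6.35 CPM at 26 weeks, against 3.68, 8.17, 10.3 and 9.16 CPM at 6 weeks (-0.78 ± 0.21 in replicates 2 to 4, edgeR, adjusted p = 0.0221, against 0.465 with 8 libraries). DUSP8 had 101, 161, 183 and 154 CPM at 26 weeks and 109, 126, 112 and 127 CPM at 6 weeks. Its replicate 1 at 26 weeks lay below all other libraries, and the gene passed with replicates 2 to 4 (0.35 ± 0.08, edgeR, adjusted p = 0.0125, against 0.515 with 8 libraries).

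The Krüppel-like factors are zinc finger regulators, several of which respond to hormones. KLF13 had 52.2, 115, 117 and 88.5 CPM at 26 weeks, against 33.7, 60.9, 56.2 and 55.5 CPM at 6 weeks. KLF12 had 69.3, 142, 154 and 137 CPM at 26 weeks and 48.5, 88.3, 98.0 and 93.0 CPM at 6 weeks, and KLF6 had 65.1, 128, 132 and 111 CPM at 26 weeks and 55.3, 85.6, 95.3 and 88.5 CPM at 6 weeks. In all 3, both replicate 1 libraries were below the other 6, the old replicates 2 to 4 lay above all young libraries, and the genes passed with replicates 2 to 4 and not with all 8 libraries (log2 fold changes of 0.79, 0.53 and 0.36, edgeR, adjusted p = 0.00150, 0.00311 and 0.0210, against 0.241, 0.393 and 0.518 with 8 libraries). KLF9, a known target of the glucocorticoid receptor, had 8.96, 20.9, 10.4 and 19.9 CPM at 26 weeks, against 5.45, 10.0, 11.2 and 11.8 CPM at 6 weeks. Its ages overlapped and it passed neither with 8 libraries nor with replicates 2 to 4 (0.64 ± 0.36, adjusted p = 0.445, and 0.55 ± 0.26 with replicates 2 to 4, adjusted p = 0.135, edgeR). It passed with a term for replicate 1 (0.66, edgeR, adjusted p = 0.0377), and over the alternatives its adjusted p ran up to 0.752.

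None of the 5 glucocorticoid identifiers passed in either fit. FKBP5, a chaperone partner that restrains the receptor and is induced by it, had 33.2, 33.1, 11.5 and 19.4 CPM at 26 weeks, against 9.55, 15.1, 21.8 and 26.3 CPM at 6 weeks. The ages overlapped, and the log2 fold change was 0.42 ± 0.41 with 8 libraries and -0.06 ± 0.35 with replicates 2 to 4 (edgeR, adjusted p = 0.691 and 0.911). TSC22D3 (GILZ), another direct target, is the name of 3 genes. They had 24.6, 63.5, 43.3 and 54.1 CPM (Nfu_g_1_003613), 5.02, 17.4, 8.19 and 13.9 CPM (Nfu_g_1_003683) and 21.2, 27.1, 12.4 and 21.4 CPM (Nfu_g_1_004440) at 26 weeks. At 6 weeks they had 19.7, 41.7, 54.2 and 49.2 CPM, 3.54, 10.0, 13.3 and 15.0 CPM, and 15.9, 15.3, 19.3 and 20.5 CPM in that order of genes. All overlapped between ages (log2 fold changes of 0.17 ± 0.37, 0.09 ± 0.49 and 0.21 ± 0.26, edgeR, adjusted p = 0.883, 0.962 and 0.771). In replicates 2 to 4 the values were 0.06, -0.04 and 0.06 (edgeR, adjusted p = 0.810, 0.930 and 0.872). The 1 identifier named NR3C1, the receptor, was near the limit of detection, with 1.26, 0.677, 0.248 and 0.608 CPM at 26 weeks, against 1.34, 0.156, 1.12 and 1.12 CPM at 6 weeks, and was too low to be tested in replicates 2 to 4 (log2 fold change -0.38 ± 0.62 with 8 libraries, edgeR, adjusted p = 0.841). The footprint table lists several NR3C1 copies, other copies may be unnamed in the RNA table, and the level of the receptor as a whole is not given here. The SE of these 5 log2 fold changes ran between 0.26 and 0.62 with 8 libraries, so differences of that size were not detectable here. Differences of several SE could be missed as well, since DUSP1 at 1.15 ± 0.23 did not pass with 8 libraries (edgeR, adjusted p = 0.0861).

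**Figure D4:**
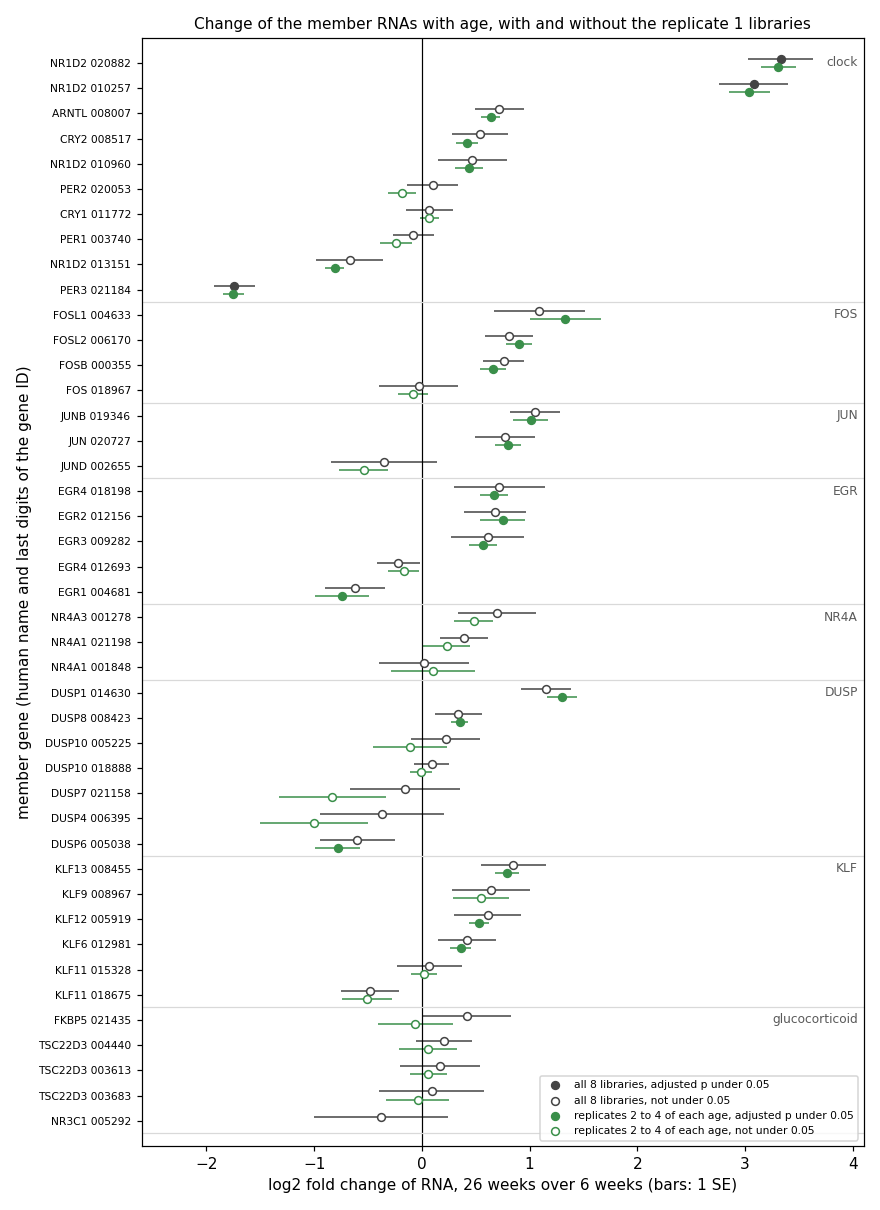
Log2 fold change of RNA at 26 weeks over 6 weeks (bars, 1 SE) of the 43 member identifiers by family, in grey with all 8 libraries and in green with replicates 2 to 4, filled where the adjusted p is under 0.05. NR1D2 Nfu_g_1_020882 (3.33) and Nfu_g_1_010257 (3.08) and PER3 (-1.74) are filled in grey, and 22 are filled in green.

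Another 8 identifiers (DUSP4, DUSP7, both DUSP10, EGR4 Nfu_g_1_012693, JUND and both KLF11) passed in no fit looked at, with log2 fold changes between -0.48 and 0.22 and adjusted p between 0.451 and 0.951 with 8 libraries, and adjusted p between 0.0998 and 0.965 with replicates 2 to 4 (edgeR). Over the alternatives set out in the closing part, the adjusted p of ARNTL ran between 9.16e-04 and 0.523, that of JUNB between 9.79e-04 and 0.417, that of FOSB between 0.00204 and 0.486, that of FOSL2 between 0.00156 and 0.517 and that of DUSP1 between 5.86e-04 and 0.333. For the others that passed with replicates 2 to 4 (NR1D2 Nfu_g_1_010960 and Nfu_g_1_013151, CRY2, FOSL1, JUN, EGR1, EGR2, EGR3, EGR4 Nfu_g_1_018198, DUSP6, DUSP8, KLF6, KLF12 and KLF13), the lowest adjusted p lay between 6.15e-04 and 0.0406 and the highest between 0.575 and 0.844. In all 8 libraries DESeq2 called the 3 clock genes and also DUSP1, FOSB, FOSL2 and JUNB. It called more genes in general, 758 of all genes against 57 with edgeR.

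Other genes of these pathways came from lists of known names, chosen apart from how they moved in these libraries but with results of the series known, and named by the study's tables in the same way. In the fit of replicates 2 to 4, each count below stands beside the 16.0% of all genes tested that rose and the 15.9% that fell. Of 14 tested glucocorticoid-related identifiers, 1 rose and none fell with 8 libraries, and 8 rose and 2 fell with replicates 2 to 4. TXNIP, an inhibitor of thioredoxin induced by glucose and glucocorticoid, had 72.8, 95.5, 80.8 and 88.7 CPM at 26 weeks, against 42.9, 42.2, 38.4 and 34.7 CPM at 6 weeks, without overlap (log2 fold change 1.09, edgeR, adjusted p = 0.0429, and 1.11 with replicates 2 to 4, adjusted p = 4.68e-04). HSD11B2, the enzyme that inactivates cortisol, had 17.3, 58.4, 33.6 and 35.8 CPM at 26 weeks, against 4.81, 13.4, 11.5 and 10.1 CPM at 6 weeks, and passed with replicates 2 to 4 (1.79, edgeR, adjusted p = 0.00126, against 0.113). CDKN1A (p21), a cell cycle inhibitor that both p53 and glucocorticoid induce, had 70.8, 276, 297 and 211 CPM at 26 weeks, against 11.2, 33.7, 31.2 and 30.9 CPM at 6 weeks, which is without overlap (3.0, adjusted p = 0.0510 with 8 libraries and 7.37e-06 with replicates 2 to 4, edgeR). This is Nfu_g_1_011849, and the second identifier of that name, Nfu_g_1_020871, did not pass (1.15, adjusted p = 0.241 with 8 libraries, and 1.05, adjusted p = 0.0573 with replicates 2 to 4, edgeR, with 0.0179 to 0.532 over the alternatives). The 2 that fell in replicates 2 to 4 were DDIT4 Nfu_g_1_023065, a stress-induced inhibitor of growth signalling (log2 fold change -0.59, edgeR, adjusted p = 0.00707, against 0.617 with 8 libraries), and HSP90AA1, the chaperone of the receptor (-0.30, edgeR, adjusted p = 0.0362, against 0.865).

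Of 15 tested identifiers of other clock genes, none passed with 8 libraries, and 3 rose and 5 fell with replicates 2 to 4. CIART, a repressor of the clock, had 16.2, 22.4, 23.2 and 18.8 CPM at 26 weeks, against 26.6, 42.1, 38.1 and 40.1 CPM at 6 weeks (log2 fold change -1.0, edgeR, adjusted p = 6.73e-04 in replicates 2 to 4, and -0.87 with 8 libraries, adjusted p = 0.139). ARNTL2 had 374, 139, 196 and 163 CPM at 26 weeks, against 225, 97.1, 70.0 and 84.8 CPM at 6 weeks, with replicate 1 highest at both ages (0.88, edgeR, adjusted p = 0.00155 in replicates 2 to 4, and 0.87 with 8 libraries, adjusted p = 0.396). Of 18 tested identifiers of other activity-induced genes, none passed with 8 libraries, and 6 rose and 1 fell with replicates 2 to 4. BDNF, a growth factor of neurons, had 48.4, 111, 112 and 93.9 CPM at 26 weeks, against 33.7, 61.6, 61.5 and 52.1 CPM at 6 weeks (0.76 in replicates 2 to 4, edgeR, adjusted p = 0.00137, and 0.81 with 8 libraries, adjusted p = 0.270). Of 5 MAP kinase identifiers, 1 rose and 2 fell with replicates 2 to 4.

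In ribosome footprints, these genes were at the edge of detection. Reads were recovered from the FPKM values, which are whole multiples of what 1 read is worth. Over all recovered genes the libraries held 4156, 3126, 3598 and 1874 reads at 26 weeks, against 2159, 998, 872 and 329 reads at 6 weeks. Of the 99 member symbols, 34 were above 0 in any library and 65 were listed at 0 in all 8, so that 34.3% were above 0, where 22.7% of all symbols were (6472 of 28494). By family, 5 of 29 DUSP symbols, 7 of 21 KLF, 10 of 18 clock, 3 of 8 EGR, 3 of 8 glucocorticoid, 4 of 5 JUN, 1 of 5 FOS and 1 of 5 NR4A symbols were above 0.

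Together the members had 26, 11, 14 and 8 reads at 26 weeks, against 11, 5, 5 and 1 reads at 6 weeks. As shares of recovered reads these are 0.626%, 0.352%, 0.389% and 0.427% at 26 weeks. At 6 weeks they are 0.509%, 0.501%, 0.573% and 0.304%, and the ages overlap. On average 95.3% of summed FPKM lay outside recovered genes, and the top symbol alone held 67.9% to 95.6% of each library. As shares of summed FPKM the members had 0.0298%, 0.0180%, 0.0189% and 0.00320% at 26 weeks. At 6 weeks they had 0.0192%, 0.0202%, 0.0215% and 0.0164%, and the ages overlap again. On that scale replicate 4 at 26 weeks was the lowest library. The limma test below uses the FPKM scale rather than recovered reads. Summed over libraries, the share of recovered reads was 0.463% at 26 weeks (59 of 12754 reads, exact 95% Clopper-Pearson interval 0.352% to 0.596%). At 6 weeks that share was 0.505% (22 of 4358, 0.317% to 0.763%). Such intervals cover counting error only. More members were above 0 at 26 weeks (26 symbols) than at 6 weeks (16), and the old libraries also held more reads. Over all symbols the counts above 0 were 5564 at 26 weeks and 2493 at 6 weeks.

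Of the 34, 28 passed the filter of a mean of at least 1 TPM (FPKM rescaled to a total of 1000000 in each library), and limma on log2(TPM + 1) called none of them, as it called none of the 5200 genes tested (0%). At an unadjusted p under 0.05 there were 1 member and 86 genes. With edgeR on recovered reads, 3 genes were called, and no member had the 10 reads needed to be tested. The median log2 fold change on that scale was 0.73 over the 28 members and 0.95 over all genes tested. These medians do not measure a change with age. A gene read at 1 age only takes its sign from that age, and the old libraries held more reads. Of the 34 members above 0, 18 were so only at 26 weeks, 8 only at 6 weeks and 8 at both ages. Of all 6472 symbols above 0, 3979 were so only at 26 weeks, 908 only at 6 weeks and 1585 at both ages.

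**Figure D5:**
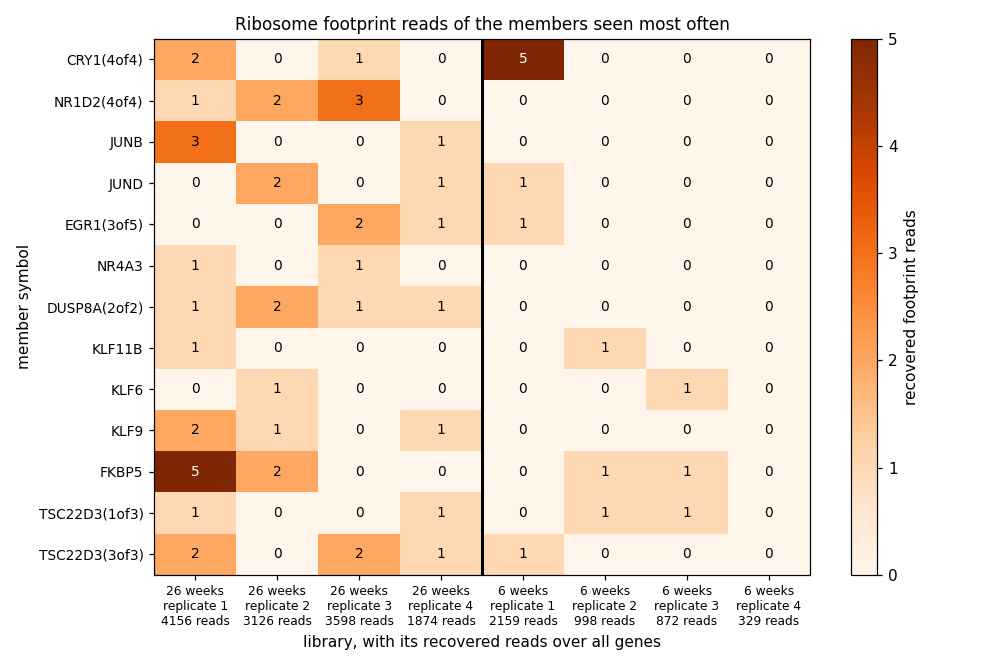
Recovered footprint reads of the 13 members above 0 in at least 2 libraries or with at least 3 reads (rows), in the 4 libraries of 26 weeks (left of the line) and the 4 of 6 weeks (right), with each library's recovered reads over all genes under it. No cell exceeds 5 reads, and replicate 4 at 6 weeks has 0 for all 13.

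Of the clock genes, NR1D2(4of4), 1 of 4 copies of that name in the footprint table, had 1, 2, 3 and 0 reads at 26 weeks, against 0 in all 4 libraries at 6 weeks. It was the member with an unadjusted p under 0.05, at 0.0418 (limma across all genes tested, adjusted p = 0.510). Its share at 26 weeks was 0.0470% of recovered reads, below the 0.0688% that 0 of 4358 reads allows at 6 weeks (3 reads), so a difference was not detectable at this depth. CRY1(4of4) had 2, 0, 1 and 0 reads at 26 weeks, against 5, 0, 0 and 0 at 6 weeks. PER3 had 1 read, in replicate 1 at 6 weeks. The footprint symbols and the RNA identifiers were named separately, so a shared name does not show that they are the same gene copy.

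Of the immediate early genes, JUNB had 3, 0, 0 and 1 reads at 26 weeks and 0 in all 4 libraries at 6 weeks. JUND had 0, 2, 0 and 1 reads at 26 weeks, against 1, 0, 0 and 0 at 6 weeks, and EGR1(3of5) had 0, 0, 2 and 1 reads at 26 weeks, against 1, 0, 0 and 0 at 6 weeks. NR4A3 had 1, 0, 1 and 0 reads at 26 weeks and 0 in all libraries at 6 weeks. None of these differences was beyond what the depth allows. Both FOS copies, FOSL1A and FOSL2 were listed at 0 in all 8 libraries, and FOSB had 1 read, in replicate 3 at 26 weeks.

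DUSP8A(2of2) was the only member with a read in all 4 old libraries, with 1, 2, 1 and 1 reads at 26 weeks and 0 in all 4 at 6 weeks (limma, adjusted p = 0.510). All 9 DUSP reads fell in old libraries, which held 12754 of the recovered reads of all genes, against 4358 in the young ones. The DUSP share was 0.0706% at 26 weeks (exact 95% interval 0.0323% to 0.134%) against 0% at 6 weeks (up to 0.0846%). These intervals overlap, cover counting error only and are no test of age. Of the Krüppel-like factors, KLF9 had 2, 1, 0 and 1 reads at 26 weeks and 0 in all 4 at 6 weeks. KLF6 had 0, 1, 0 and 0 reads at 26 weeks, against 0, 0, 1 and 0 at 6 weeks, and KLF11B had 1, 0, 0 and 0 at 26 weeks, against 0, 1, 0 and 0 at 6 weeks.

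The glucocorticoid targets were read at both ages. FKBP5 had 5, 2, 0 and 0 reads at 26 weeks, against 0, 1, 1 and 0 at 6 weeks. TSC22D3(3of3) had 2, 0, 2 and 1 reads at 26 weeks, against 1, 0, 0 and 0 at 6 weeks, and TSC22D3(1of3) had 1, 0, 0 and 1 at 26 weeks, against 0, 1, 1 and 0 at 6 weeks. Their ages overlapped, with adjusted p of 0.510 to 0.987 (limma). All NR3C1 copies were listed at 0. The other 21 members above 0 had a value in 1 library each, 13 of them at 26 weeks and 8 at 6 weeks, and each was taken as 1 read. Over all symbols with a value in 1 library, 3038 had it at 26 weeks and 847 at 6 weeks.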

How the data were processed

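Brain RNA and footprint libraries were grouped by the age label. For RNA, the authors deposited whole-number counts per gene, made with STAR 2.4.1d and featureCounts 1.4.6-p4 after bcl2fastq 1.8.4, as the submitters' processing notes list them. The genome build, the strand setting and the handling of reads shared by paralogs are not given for these libraries in the sources used here (the study's methods name Tophat2, a genome and unstranded counting for RNA libraries of other ages, while the notes for these libraries name STAR), so values of the NR1D2, TSC22D3, NR4A1, EGR4, KLF11 and DUSP10 copies could share reads. The deposited RPKM values had been divided by library totals recycled down the genes (implied gene lengths varied by 0.00330% with that rule and by 17.6% with each library's own total, over 12814 genes), and served only to obtain gene lengths. The footprint values that the authors deposited are FPKM per symbol (STAR, NotFur1 genome, RSEM 1.3.1). Whole reads were recovered for 6410 of 6472 symbols above 0 (99.0%, tolerance 0.02 read). On average 95.3% of TPM lay outside them. A symbol above 0 in 1 library was taken as 1 read. Symbols above 0 in more libraries were given the smallest whole numbers that fit. Either rule can understate the reads, and so the library totals and the intervals built on them. A fold change fitted to so few reads depends on the pseudocount of 1 and is no bound.

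Counts were tested with edgeR 4.0.16 (TMM, filterByExpr, quasi-likelihood), footprints with limma 3.58.1, with Benjamini-Hochberg adjustment over all genes tested. The edgeR test reports no SE. The SE printed with its log2 fold changes is the absolute fold change divided by the square root of the test's F statistic, an approximation. Exact intervals used SciPy 1.17.1. Procedures were tested on simulated data. The simulated RNA counts had no replicate 1 shift, and the simulated footprints held reads of recovered genes only. Those runs do not show how the tests behave with such a shift or with the genes left out. The RNA genes named are the core genes of each pathway and, per family, at most 3 others past 0.05 with 8 libraries, with replicates 2 to 4 or with replicate as a block. Alternatives were DESeq2 1.42.0, upper quartile scaling, no filter, the replicate block, a term for replicate 1, replicates 2 to 4, other pseudocounts and filters, and leaving out each library. The members and lists were chosen with earlier results of these data known. No sequences are shown. The value of 1 marker gene is not reported here.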

Additional observations from a re-analysis of the deposited data

Results flagged for a closer look

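In 4 of 70 groups of 4 RNA libraries (35 named identifiers at 2 ages), 1 library lay far from the other 3 by Dixon's test at its 95% limit, and chance flags about 1 in 20 groups. Of these, 3 were replicate 1 libraries: EGR4 Nfu_g_1_018198 had 38.0 CPM in replicate 1 at 26 weeks, below its group, while CRY2 (43.8 CPM) and NR1D2 Nfu_g_1_013151 (409.5 CPM) were above theirs in replicate 1 at 6 weeks. The other was PER1 with 28.2 CPM in replicate 4 at 6 weeks, in a group that otherwise spans less than 1 CPM.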

How the results depend on the processing

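With 8 libraries, 3 members and 57 of all genes were called (28 higher, 29 lower). Members called were 7 with DESeq2, 22 with replicates 2 to 4, 21 with a term for replicate 1, and 0 among the identifiers named in a table not ranked on RNA change with age (an alternative chosen after seeing the data). Leaving out 1 library gave 0 to 4. All genes called were 758 with DESeq2, 37 without a filter, 5298 with replicates 2 to 4, 4192 with a term for replicate 1 and 0 to 638 without 1 library. Upper quartile scaling also called 57 but split them into 19 higher and 38 lower, and moved the median of all genes to -0.07 (0.04 in the main scaling). Whether replicate numbers pair the libraries was not settled by their correlations. Same-numbered old and young RNA libraries correlated at 0.80, 0.482, 0.0346 and 0.565 in their deviations from the age means, and 2 of 4 correlated best with their own number. Footprint libraries correlated at 0.0485, 0.0889, 0.0147 and 0.286, and all but replicate 3 correlated best with their own number. With the replicate block, 17 members and 2658 genes were called, among them NR4A3 (log2 fold change 0.79, adjusted p = 0.0296 with edgeR), which passed neither with 8 libraries nor with replicates 2 to 4. In footprints the block called 0.

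The members' median RNA change stayed between 0.16 and 0.38 in every alternative. Their median footprint change (0.73) was 1.53 with a pseudocount of 0.1, 0.23 with 10 and 1.77 without the 20 most abundant genes, where the median of all genes was 1.76, 0.29 and 1.94. The members' median had no value with edgeR, for want of reads. None of these footprint medians measures a change with age, for the reasons given above. The difference of the share of recovered reads (26 weeks minus 6 weeks, -0.0236 percentage points) stayed within the spread between libraries. Among all footprint genes, 3 were called with edgeR on recovered reads.

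Log2 fold changes that changed sign belonged to members that were not called. With upper quartile scaling, CRY1 was -0.06, NR4A1 Nfu_g_1_001848 -0.09, PER2 -0.01 and TSC22D3 Nfu_g_1_003683 -0.05. With DESeq2, NR4A1 Nfu_g_1_001848 was -0.02. Without a filter it was -0.05, and CRY1 was 0.00 (below zero before rounding). With replicates 2 to 4, FKBP5 was -0.06, PER2 -0.18 and TSC22D3 Nfu_g_1_003683 -0.04. Leaving out 1 library moved CRY1 between -0.12 and 0.14, FOS between -0.30 and 0.15, NR4A1 Nfu_g_1_001848 between -0.22 and 0.36, PER2 between -0.22 and 0.17, TSC22D3 Nfu_g_1_003613 between -0.06 and 0.33 and TSC22D3 Nfu_g_1_003683 between -0.21 and 0.31. In footprints it moved EGR1(3of5) between -0.41 and 1.50, JUND between -0.38 and 2.41, KLF11B between -1.40 and 0.98, KLF6 between -1.11 and 0.82, CRY1(4of4) between -0.15 and 2.23 and FKBP5 between -0.73 and 0.75. Without the 20 most abundant genes FKBP5 was -0.19. The cause was not tested. Footprint depth limits every statement on single members, none of which exceeded 9 reads in all.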

Other observations

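Several further genes of the pathway lists had every old library above or below every young one, as did 9.89% of all genes tested. ZBTB16 Nfu_g_1_000574, a factor induced by glucocorticoid, had 108, 77.3, 77.6 and 62.0 CPM at 26 weeks, against 46.6, 33.4, 25.2 and 31.4 CPM at 6 weeks (log2 fold change 1.25, edgeR, adjusted p = 0.0866 with 8 libraries and 5.36e-04 with replicates 2 to 4). Of the other identifiers of that name, Nfu_g_1_000436 did not pass (0.04, adjusted p = 0.984, and -0.02, adjusted p = 0.981, in the same fits) and Nfu_g_1_022092 was under the filter on low counts. CEBPB, a factor of the acute phase response, had 28.7, 40.8, 38.4 and 60.9 CPM at 26 weeks, against 12.9, 17.8, 13.5 and 13.1 CPM at 6 weeks (1.56, edgeR, adjusted p = 0.0510 and 0.00113 in the same fits). GADD45G, a growth arrest gene induced by activity and stress, had 77.1, 86.9, 114 and 124 CPM at 26 weeks, against 47.3, 43.8, 37.0 and 28.5 CPM at 6 weeks (1.36, edgeR, adjusted p = 0.0617 and 5.42e-04).

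PIM1, a kinase induced with the immediate early genes, had 95.5, 119.8, 135 and 116 CPM at 26 weeks, against 60.3, 71.6, 71.0 and 69.4 CPM at 6 weeks. TIMELESS, which acts in DNA replication and has been tied to the clock, was lower with 5.44, 4.83, 3.97 and 3.74 CPM at 26 weeks, against 12.1, 10.1, 7.61 and 6.70 CPM at 6 weeks. MAPK9, a JNK kinase, had 7.20, 6.96, 2.86 and 6.00 CPM at 26 weeks, against 9.55, 10.7, 14.2 and 13.5 CPM at 6 weeks. These 3 passed with replicates 2 to 4 (edgeR, adjusted p = 6.22e-04, 0.00926 and 0.0109) and not with 8 libraries (adjusted p = 0.121, 0.150 and 0.188).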
